A study of Mus musculus with 16 samples.

Results

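The cytosolic heat shock genes described here are 10 named genes: Hsf1, Hspa1a, Hspa1b, Hspa8, Hsph1, Dnaja1, Dnajb1, Hsp90aa1, Hsp90ab1 and Hspb1. They were chosen by name, with earlier results of these data known. All 10 were among the 15119 genes of the counts table, and all 10 were among the 14434 genes that passed the filter on low counts. They were measured by poly(A) RNA-seq in livers of female mice of 2 genotypes, wild type (WT) and a hepatocyte knockout (LKO) of Arglu1, which encodes a transcriptional coregulator. The mice were aged to 9 months on chow and then spent 12 weeks either on chow or on the high-fat diet TD. 88137 (HFD), which gave 4 groups of 4 libraries: WT on chow, LKO on chow, WT on HFD and LKO on HFD. The labels name neither the driver of the hepatocyte deletion nor the part of Arglu1 removed, and other liver cells of LKO mice keep the gene. Nor do they state whether libraries come from separate animals, and p-values therefore measure the spread among libraries.

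Cells respond to unfolded proteins in the cytosol through heat shock factor 1, encoded by Hsf1, which binds heat shock elements, repeats of short GAA units in alternating orientation, in the promoters of chaperone genes. The HSP70 chaperones hold unfolded chains in an ATP-driven cycle that J-domain proteins start and nucleotide exchange factors end, and HSP90 chaperones take over many of these clients, among them the glucocorticoid receptor. Small heat shock proteins bind unfolding proteins without ATP. Each family has members made at all times, such as Hspa8 and Hsp90ab1, and members that are strongly heat-inducible, such as Hspa1a, Hspa1b and Hspb1.

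Levels are given as CPM, the estimated count of a gene divided by the TMM-scaled size of its library. Library totals ran from 19142612 to 25120565 estimated counts. A fold change is a fitted log2 value from edgeR's quasi-likelihood test over all genes, and a gene was called at an adjusted p (Benjamini-Hochberg over 14434 genes) below 0.05. On chow, Arglu1 had a mean of 41.2 ± 2.62 CPM in WT libraries and 14.7 ± 1.56 CPM in LKO libraries, and on HFD 42.2 ± 1.70 and 15.5 ± 1.53 CPM (SD, n = 4 each). Each LKO library was below each WT library. On the second principal component LKO chow replicates 3 and 4 (38.1 and 34.7) stood apart from replicates 1 and 2 (-10.7 and -11.1). The 8 hepatocyte markers were present in every library. Of the markers of hepatocytes, Cps1 and Tat were lower in LKO on chow, and on HFD Alb was higher and Tat and Ttr lower. Of the markers of other cell types, Jchain (plasma cells) was lower in LKO on chow, Vwf (endothelial cells) lower on HFD and Alas2 (red blood cells) higher on both diets. Between diets in WT, Alb was lower and Col1a1 and Col3a1 (fibroblasts) higher on HFD, and in LKO no marker was called. The summed hepatocyte markers had a median of 113283 CPM on chow and 74996 on HFD in WT, and 125531 and 100715 in LKO. Their part in the heat shock values was not tested. In whole liver, fewer cells of a type and less RNA per cell cannot be told apart.

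In WT liver on chow the constitutive chaperones stood far above the inducible ones. Compared per kilobase of exon, Hspa8, the constitutive HSP70, lay at 328 ± 53.7 CPM per kb and Hsp90ab1, the constitutive HSP90, at 319 ± 35.8 (SD, n = 4), a difference smaller than their spread. The inducible HSP90, Hsp90aa1, followed at 58.5 ± 11.7 CPM per kb, ahead of the J-domain gene Dnaja1 at 29.1 ± 5.36 and the small heat shock gene Hspb1 at 23.2 ± 10.05, which did not differ beyond their spread. Below them, Hsph1 at 8.90 ± 1.68, Dnajb1 at 8.82 ± 1.99 and Hspa1b at 7.52 ± 3.13 CPM per kb were also within each other's spread. Hsf1 lay at 2.25 ± 0.182 and Hspa1a lowest at 0.264 ± 0.187 CPM per kb. The length used is all annotated exon bases of a gene, which can exceed that of 1 transcript. It is 7099 bases for Hsf1, 7266 for Hsph1 and 4301 for Hspa8. Their longest protein-coding transcripts have 2104, 3802 and 2394 bases. For Hspa1b both lengths are 2803 bases. The order of genes, that of Hspa1b and Hsf1 in WT liver included, and which lie within each other's spread, therefore depends on the length used. In LKO liver Hspb1 took the third place, at 79.2 CPM per kb on chow and 100.2 on HFD, above Hsp90aa1 at 61.0 and 87.9. Hspa1b stood below Hsf1, at 1.06 against 2.54 CPM per kb on chow and 0.961 against 2.16 on HFD. The plot of member levels by library shows the same values before the correction for length.

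**Figure D1:**
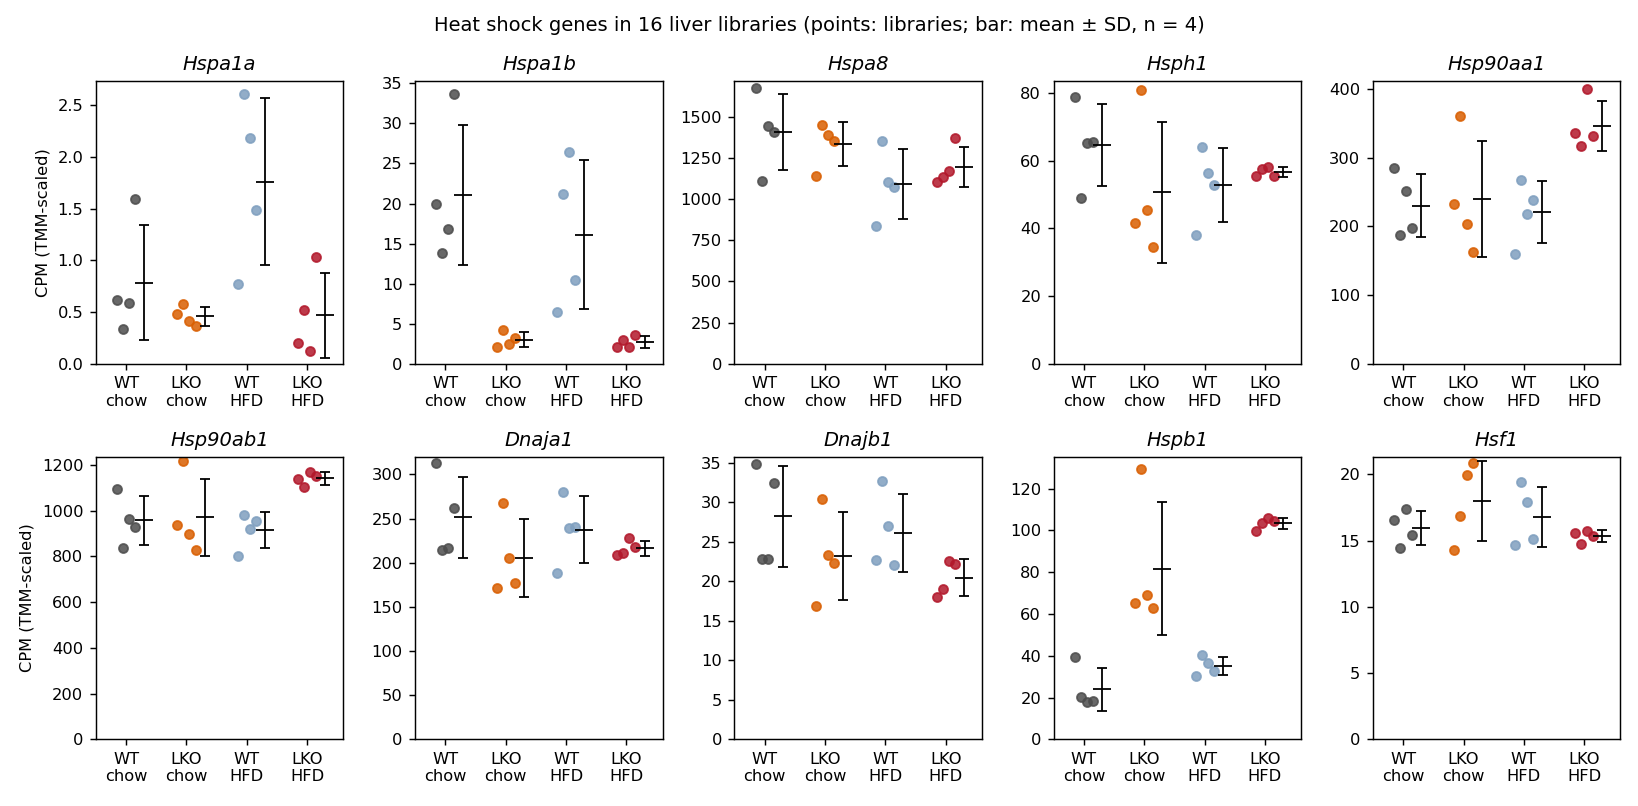
Level of each of the 10 heat shock genes in the 16 libraries, as CPM on linear axes that start at 0, with 1 point per library and, beside them, the mean and SD of each group of 4. Hspb1 is higher and Hspa1b lower in every LKO library than in every WT library of the same diet, while Hspa8, Hsph1, Dnaja1, Dnajb1 and Hsf1 overlap between genotypes on both diets.

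On chow, 2 of the 10 genes were called between genotypes: Hspb1 was higher and Hspa1b lower in LKO liver. Across all genes 24.7% were called (12.9% higher and 11.8% lower), so the share among the heat shock genes was near the background. The median log2 difference of the 10 genes was -0.18, against 0.02 over all genes tested. On HFD, 4 of the 10 were called, against 17.9% of all genes (10.3% higher and 7.57% lower): Hspb1 and Hsp90aa1 were higher, and Hspa1b and Hspa1a lower. Their median was -0.01, the same as over all genes. The 2 genes called on both diets, Hspb1 and Hspa1b, moved in opposite directions, and both were also called without LKO chow replicates 1 and 2 or without 3 and 4.

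Hsf1 (chromosome 15, 76477422 to 76501913, plus strand, GRCm38), the transcription factor of the response, was not called in any comparison with all libraries. It lay at 16.6, 14.4, 17.4 and 15.5 CPM in WT on chow and at 14.3, 16.8, 20.0 and 20.9 CPM in LKO on chow. On HFD it lay at 14.7, 19.4, 18.0 and 15.1 CPM in WT and at 15.6, 14.7, 15.8 and 15.4 CPM in LKO. The genotypes overlapped on both diets, and the log2 difference of LKO from WT was 0.17 on chow (95% interval -0.08 to 0.43) and -0.13 on HFD (-0.38 to 0.12). Without LKO chow replicates 1 and 2, Hsf1 was called between genotypes on chow (0.36, adjusted p = 0.0261) and between diets in LKO (-0.41, adjusted p = 0.0232). These levels are of the transcript, and the activity of HSF1, which is set by its release from chaperones and by modification of the protein, was not measured.

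Hspa1b and Hspa1a encode the heat-inducible HSP70 and lie next to each other on the minus strand of chromosome 17 (GRCm38), Hspa1b at 34956436 to 34959238 and Hspa1a at 34969190 to 34972156. Hspa1b was the member that fell furthest. It lay at 19.95, 13.8, 16.8 and 33.7 CPM in WT on chow and at 2.07, 4.20, 2.46 and 3.15 CPM in LKO on chow. On HFD it lay at 6.44, 21.2, 26.5 and 10.4 CPM in WT and at 2.15, 2.94, 2.10 and 3.59 CPM in LKO. Every LKO library was below every WT library of its diet, and the lowest WT library of all was above the highest LKO library. Hspa1b fell by 2.82 on the log2 scale on chow (SE 0.425, adjusted p = 0.000233), a level 7.05-fold lower, and by 2.58 on HFD (SE 0.425, adjusted p = 0.000618), a level 5.96-fold lower. By size of change it ranked 94 on chow and 110 on HFD among the 14434 genes. The fall on HFD did not differ detectably from that on chow (interaction 0.24 log2, 95% interval -1.01 to 1.50).

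The 250 bases before the RefSeq start of Hspa1b and of Hspa1a (GRCm38.p6) are shown because the neighbouring genes are near copies and because HSF1 acts through promoters of this kind. Hspa1b stands at chr17:34959239-34959488 and Hspa1a at chr17:34972157-34972406, both read 5′ to 3′ on the minus strand, with the last base next to the start. Capitals mark a match to 2 heat shock units, GAANNTTC or TTCNNGAA, searched on both strands.
Hspa1b upstream: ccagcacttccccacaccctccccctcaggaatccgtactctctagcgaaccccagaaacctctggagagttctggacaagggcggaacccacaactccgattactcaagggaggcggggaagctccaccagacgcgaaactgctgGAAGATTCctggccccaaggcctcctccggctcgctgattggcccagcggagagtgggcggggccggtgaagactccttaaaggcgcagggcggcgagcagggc
Hspa1a upstream: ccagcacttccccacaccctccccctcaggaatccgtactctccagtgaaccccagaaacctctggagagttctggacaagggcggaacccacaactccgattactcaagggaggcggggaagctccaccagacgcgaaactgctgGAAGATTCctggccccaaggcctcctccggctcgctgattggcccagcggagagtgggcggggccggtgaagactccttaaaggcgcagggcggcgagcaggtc
The windows are identical at 247 of 250 positions. The substitutions, with the base of Hspa1a first and positions counted from 1 at the 5′ end of the window, are C44T, T47C and T249G. Each window holds 1 match, 104 to 97 bases before the start. Of 32851 upstream windows of the same length, 12.8% hold such a match. The longer element of 3 units, GAANNTTCNNGAA or TTCNNGAANNTTC, was in 0 of the 10 windows of the 6 heat shock genes found in that table, and in 0.466% of all windows. Only exact matches were searched, so imperfect heat shock elements were not counted.

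Hspa1a was read at 3.0 to 53.5 estimated counts per library, so its level is imprecise. It lay at 0.614, 0.335, 0.592 and 1.59 CPM in WT on chow and at 0.485, 0.578, 0.410 and 0.368 CPM in LKO on chow. On HFD it lay at 0.769, 2.61, 2.18 and 1.49 CPM in WT and at 0.204, 0.517, 0.124 and 1.03 CPM in LKO. The genotypes overlapped on both diets. Hspa1a was called on HFD (-1.88 log2, SE 0.536, adjusted p = 0.0205) and not on chow (-0.74 log2, 95% interval -1.95 to 0.47, adjusted p = 0.388), and the difference between diets was itself not called (interaction -1.13, 95% interval -2.80 to 0.54, adjusted p = 0.672). The call on HFD was lost without WT HFD replicate 2 (adjusted p = 0.0598), WT HFD replicate 3 (0.0568), LKO HFD replicate 1 (0.0667) or LKO HFD replicate 3 (0.0588).

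The coding sequences of Hspa1a (1926 bases) and Hspa1b (1929 bases) are identical at 1918 aligned bases with 8 mismatches, so reads from one can be assigned to the other. Among windows of 150 bases, the length of 1 read, 52.6% of those starting in the coding part of Hspa1a and 50.2% of those in Hspa1b also occur in a transcript of another gene, while 0 starting after the stop codon do. How the authors' counting treated such reads is not given in the sources used here. The sum of both genes does not depend on how reads were split between them. It can still depend on reads shared with Hspa1l, whose transcripts hold some of these windows too, and on reads left out of the count. On chow the sum averaged 21.9 ± 9.33 CPM in WT libraries and 3.43 ± 0.985 CPM in LKO libraries, and on HFD 17.9 ± 10.01 and 3.16 ± 1.12 CPM (SD, n = 4). The sum fell by 2.66 log2 on chow (SE 0.430, adjusted p = 0.000438), which is 6.32-fold lower, and by 2.49 on HFD (SE 0.430, adjusted p = 0.000894), which is 5.63-fold lower. Hspa1a made up 2.24% to 4.51% of the sum in WT libraries on chow, 10.002% to 18.3% in LKO on chow, 7.54% to 12.7% in WT on HFD and 5.50% to 22.5% in LKO on HFD.

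Hspa8 (chromosome 9, 40800984 to 40810087, plus strand), the constitutive HSP70 that carries out routine folding and protein import, was not called between genotypes. It ranged from 1114 to 1677 CPM in WT and from 1141 to 1452 CPM in LKO on chow, and from 836 to 1354 CPM in WT and from 1106 to 1372 CPM in LKO on HFD. The log2 difference of LKO from WT was -0.08 on chow (95% interval -0.38 to 0.22) and 0.13 on HFD (-0.17 to 0.43). Its interval on either diet ends far short of the difference seen for Hspa1b. Of the 150-base windows of Hspa8 transcripts, 55.4% also occur in transcripts of the genes Gm15459, Gm6210, Gm7232 or Gm8355, so its count may be shared with these.

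Hsph1 (chromosome 5, 149614287 to 149636376, minus strand) encodes HSP110, a nucleotide exchange factor of HSP70. It lay at 78.9, 49.0, 65.3 and 65.5 CPM in WT on chow and at 41.7, 81.0, 45.5 and 34.4 CPM in LKO on chow. Of the LKO chow libraries 3 were below all WT libraries and replicate 2 was above them all. The difference was -0.35 log2 (95% interval -0.82 to 0.11, adjusted p = 0.275), and without LKO chow replicate 2 it was -0.67 (adjusted p = 0.00614). On HFD Hsph1 ranged from 38.1 to 64.0 CPM in WT and from 55.4 to 58.0 CPM in LKO, with a difference of 0.10 log2 (-0.36 to 0.56). On chow, limma voom with quality weights called Hsph1 with all libraries (-0.57, adjusted p = 0.0393), so its call turned both on 1 library and on the method.

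The J-domain genes were not called in any comparison. Dnaja1 (chromosome 4, 40722150 to 40737149, plus strand), a J-domain partner of Hspa8 in folding, lay at 312, 214, 217 and 262 CPM in WT on chow and at 171, 268, 205 and 177 CPM in LKO on chow. The groups overlapped only through LKO chow replicate 2: the difference was -0.29 log2 (95% interval -0.61 to 0.02, adjusted p = 0.175) with it and -0.45 (adjusted p = 0.0253) without it. On HFD Dnaja1 ranged from 188 to 280 CPM in WT and from 208 to 228 CPM in LKO (-0.13 log2, interval -0.45 to 0.18). Dnajb1 (chromosome 8, 83608193 to 83612653, plus strand), the heat-inducible J-domain protein HSP40, had 28.3 ± 6.36 CPM in WT and 23.3 ± 5.55 in LKO on chow, and 26.1 ± 4.90 and 20.5 ± 2.31 CPM on HFD (SD, n = 4). Its differences were -0.28 (-0.66 to 0.10) and -0.35 log2 (-0.73 to 0.03). Dnaja1 overlaps Smu1 on the opposite strand, and whether reads were counted by strand is not given in the sources used here. Of the 150-base windows of Dnaja1, 11.6% also occur in transcripts of Gm15542, Gm6335 or Gm7816.

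Hsp90aa1 (chromosome 12, 110690605 to 110702728, minus strand), the inducible HSP90, was higher in LKO liver on HFD. There it lay at 160, 267, 219 and 238 CPM in WT and at 335, 317, 399 and 331 CPM in LKO, with no overlap. It rose by 0.65 log2 (SE 0.210, adjusted p = 0.0422), a level 1.56-fold higher. On chow it lay at 285, 187, 251 and 197 CPM in WT and at 233, 360, 203 and 163 CPM in LKO, where the groups overlapped (0.06 log2, 95% interval -0.38 to 0.50). The difference between the diets in the genotype effect was not called (interaction 0.59, 95% interval -0.04 to 1.21, adjusted p = 0.590). The call on HFD was near the threshold and was lost without any 1 of 9 libraries. These were LKO HFD replicate 1 (adjusted p = 0.0745), 2 (0.0602), 3 (0.108) or 4 (0.0699), WT HFD replicate 1 (0.122), 3 (0.0868) or 4 (0.0676), WT chow replicate 3 (0.0508) and LKO chow replicate 1 (0.0533), the chow libraries entering through the shared estimate of spread. Its log2 difference was 0.52 to 0.75 in all 28 alternatives run. Of the 150-base windows of Hsp90aa1, 36.2% also occur in transcripts of Gm12346, Gm5511 or Gm5844, so its count may be shared with these.

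Hsp90ab1 (chromosome 17, 45567775 to 45573271, minus strand), the constitutive HSP90, had the same order on HFD with a smaller difference. It lay at 802, 980, 918 and 955 CPM in WT and at 1138, 1103, 1169 and 1152 CPM in LKO on HFD. These groups did not overlap, and the difference of 0.32 log2 (SE 0.116, 1.25-fold) did not pass the threshold (adjusted p = 0.0658). It passed with DESeq2 (adjusted p = 0.0381), with limma voom (0.00650) and in an edgeR fit of only the groups compared (0.0119). It also passed without LKO chow replicate 2, which enters through the spread (0.0241). On chow Hsp90ab1 ranged from 837 to 1096 CPM in WT and from 829 to 1215 CPM in LKO (0.02 log2, 95% interval -0.22 to 0.26). Counted by overlap alone, 2 of the 10 genes did not overlap between genotypes on chow, Hspa1b and Hspb1, against 21.4% of all genes. On HFD 4 of the 10 did not, with Hsp90aa1 and Hsp90ab1 added, against 27.8% of all genes.

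**Figure D2:**
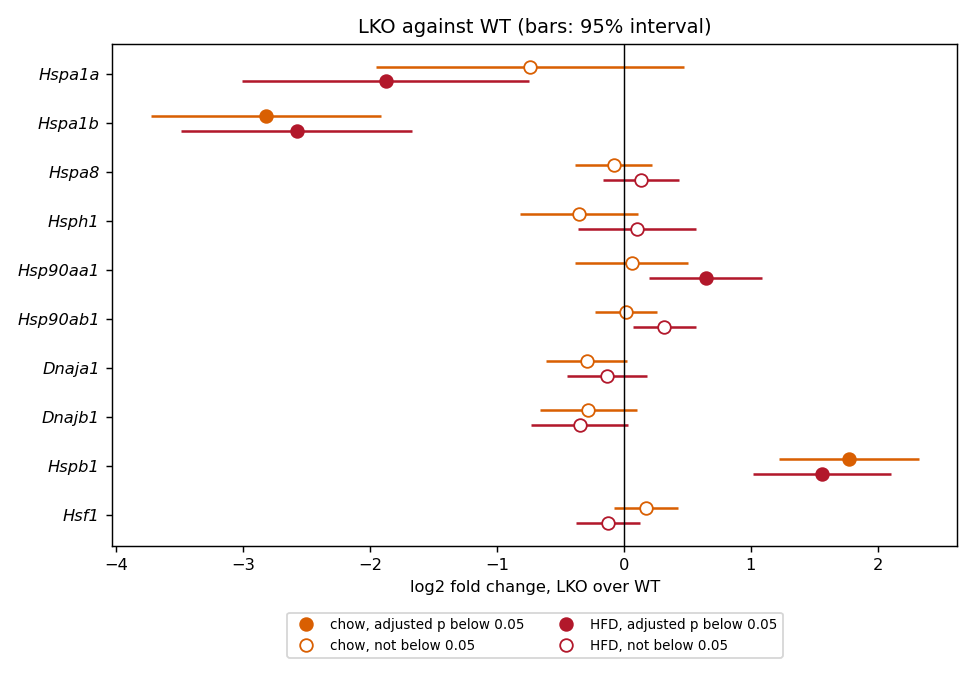
Fitted log2 difference of LKO from WT for each heat shock gene on chow and on HFD, with bars of the 95% interval from edgeR and filled points for called genes. Hspb1 lies at 1.77 and 1.56 and Hspa1b at -2.82 and -2.58, and the constitutive genes Hspa8 and Hsp90ab1 lie within 0.32 of 0.

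Hspb1 (chromosome 5, 135887919 to 135889563, plus strand), a small heat shock protein that holds unfolding proteins and binds actin filaments, was the member that rose furthest. It lay at 39.4, 20.1, 18.0 and 18.2 CPM in WT on chow and at 65.3, 129, 69.1 and 62.8 CPM in LKO on chow. On HFD it lay at 30.4, 40.4, 36.5 and 32.8 CPM in WT and at 99.5, 103.6, 105.8 and 104.5 CPM in LKO. Every LKO library was above every WT library of either diet, and the LKO libraries on HFD lay close together. Hspb1 rose by 1.77 log2 on chow (SE 0.259, adjusted p = 0.000145), which is 3.42-fold, and by 1.56 on HFD (SE 0.255, adjusted p = 0.000493), which is 2.95-fold. The interaction was -0.21 log2 (95% interval -0.97 to 0.54). By size of change Hspb1 ranked 344 on chow and 374 on HFD among all genes tested. Of its 150-base windows, 36.6% also occur in the transcript of Hsp25-ps1, a processed copy.

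The 250 bases before the RefSeq start of Hspb1 (GRCm38.p6, chr5:135887669-135887918, plus strand) are shown beside those of Hspa1b above because these were the 2 members called on both diets, in opposite directions. Capitals again mark matches to 2 heat shock units.
Hspb1 upstream: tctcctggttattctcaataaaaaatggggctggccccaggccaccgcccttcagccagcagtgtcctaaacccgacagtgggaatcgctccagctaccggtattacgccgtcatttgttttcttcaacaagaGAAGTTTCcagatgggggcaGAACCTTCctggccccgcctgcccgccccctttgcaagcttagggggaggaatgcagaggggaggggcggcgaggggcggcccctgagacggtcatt
This window holds 2 matches, at 117 to 110 and at 97 to 90 bases before the start. Windows of Hsph1 and 1 of the 3 windows of Dnaja1 also held a match, and those of Dnajb1 held none. The windows of Dnaja1 and 1 window of Dnajb1 lie inside the annotated gene, and those of Hsph1 overlap it. Of the 10 windows, 7 were followed by 25 bases found in a transcript of their gene. The matches of Hspb1, Hspa1a and Hspa1b lie before the annotated gene, whereas those of Hsph1 and Dnaja1 lie inside it. A match describes letters of the sequence and not binding, which was not measured. Its part in the levels of these genes was not tested.

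**Figure D3:**
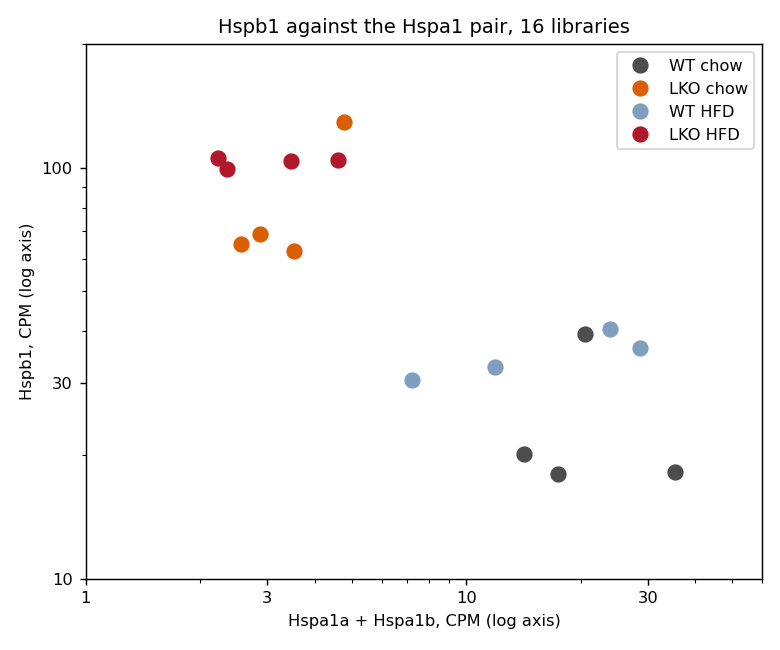
Level of Hspb1 against the summed level of Hspa1a and Hspa1b in each of the 16 libraries, as CPM on log axes, coloured by group. The WT libraries lie at a sum of 7.21 to 35.3 CPM with Hspb1 at 18.0 to 40.4 CPM, and the LKO libraries at a sum of 2.22 to 4.78 CPM with Hspb1 at 62.8 to 129 CPM, with no overlap on either axis.

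Hspb1 and the Hspa1 pair each separated the genotypes in every library, in opposite directions, so their ratio does so by construction. The ratio of Hspb1 to the summed Hspa1a and Hspa1b was 0.516 to 1.92 in WT on chow and 17.9 to 27.1 in LKO on chow, and 1.27 to 4.22 in WT on HFD and 22.6 to 47.6 in LKO on HFD. The 10 genes together made up 0.248% to 0.340% of all counts in WT on chow, 0.265% to 0.367% in LKO on chow, 0.216% to 0.299% in WT on HFD and 0.302% to 0.339% in LKO on HFD. Most of that share belongs to Hspa8 and Hsp90ab1.

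No heat shock gene was called between diets. In WT liver 0 of 10 were called, against 2.04% of all genes, and 3 had an unadjusted edgeR p under 0.05: Hspa1a (1.17 log2, 95% interval 0.09 to 2.25, adjusted p = 0.283), Hspa8 (-0.37, -0.67 to -0.07, adjusted p = 0.204) and Hspb1 (0.55, 0.01 to 1.09, adjusted p = 0.316). Without WT chow replicate 1, Hspb1 differed by 0.90 log2 (adjusted p = 0.0401). In LKO liver 0 of 10 were called, against 2.22% of all genes, and Hsp90aa1 alone had an unadjusted p under 0.05 (0.53 log2, 0.08 to 0.97, adjusted p = 0.197). Without LKO chow replicate 2 it differed by 0.79 (adjusted p = 0.0226). DESeq2 gave 0 calls in both genotypes and limma voom gave 0 in WT and 2 in LKO (Hsp90aa1 and Hsp90ab1). Over all 14434 genes voom called 2053 in LKO. In both genotypes the diet groups overlapped for all 10 genes, whereas 9.51% of all genes in WT and 10.2% in LKO did not overlap. The median log2 difference of the 10 genes was -0.08 in WT and 0.06 in LKO, against 0.01 and 0.00 over all genes. The interaction was called for 0 of the 10, by DESeq2 and limma voom also 0, with 0 at an unadjusted p under 0.05, and for 0.0208% of all genes.

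**Figure D4:**
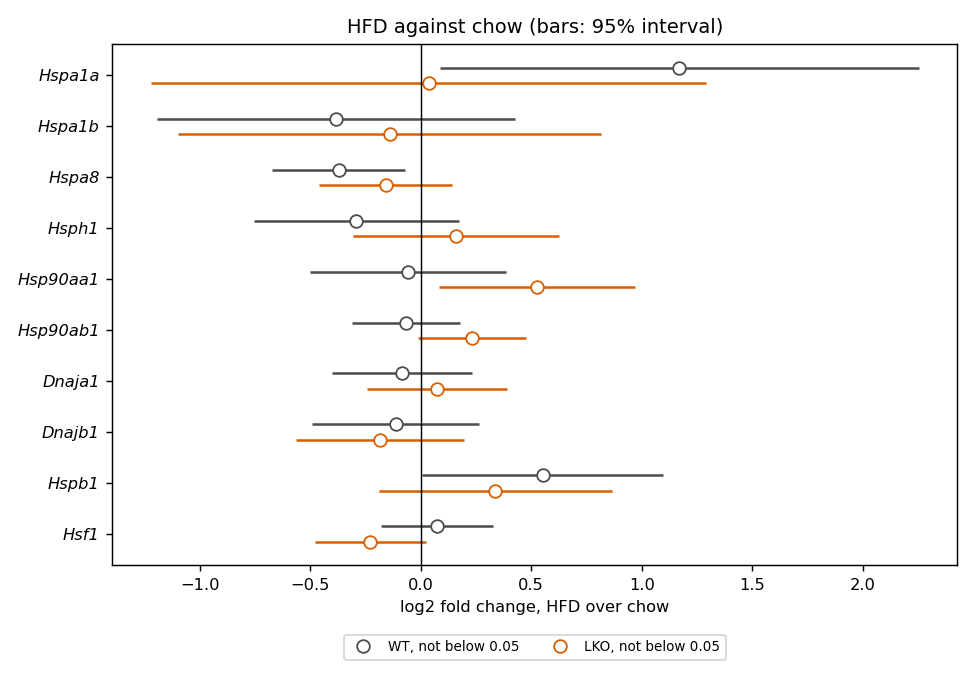
Fitted log2 difference of HFD from chow for each heat shock gene in WT and in LKO, with bars of the 95% interval from edgeR. No gene was called, and the interval is widest for Hspa1a, which was read at the fewest counts.

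Within groups, most of the heat shock genes moved up or down together from library to library. Hsf1 did so less: after group means were subtracted, its Pearson r ran from 0.04 (Hsp90ab1) to 0.66 (Hspa8). For Hspa1a with Hspb1 it was 0.12. The deviations below were not set against those of all genes in the same libraries. LKO chow replicate 2 was the highest of its group for 9 of the 10 genes, all but Hsf1, with a median deviation of 0.41 log2 from its group's mean. WT HFD replicate 2 was the highest for 9, and WT HFD replicate 1 the lowest for 9. WT chow replicate 2 was the lowest for 9 and below the mean for all 10. The constitutive and the inducible genes shared these shifts. In LKO on chow the same library was the lowest of its group for the cold-inducible RNA-binding genes Cirbp (13 CPM, others 21.9 to 28.4) and Rbm3 (23.3 CPM, others 37.4 to 54.9). It also had the lowest mean level of the 14 clock genes, 3.66 log2 CPM against 4.13 to 4.48 in the other libraries of its group. The part of these in the heat shock values was not tested. The labels give no time of collection.

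**Figure D5:**
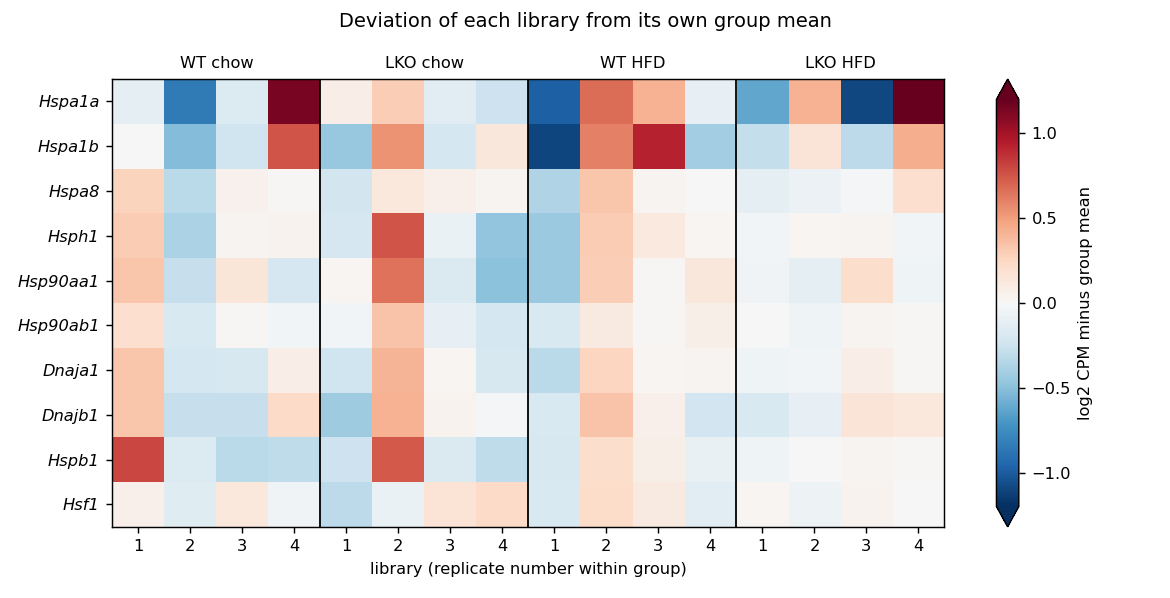
Deviation of each library from the mean of its own group, in log2 CPM, for the 10 heat shock genes, as a grid with 1 row per gene and 1 column per library, red above and blue below the group's mean. LKO chow replicate 2 is above its group's mean for 9 of 10 genes, WT HFD replicate 1 is below for 10, and the LKO libraries on HFD are pale except for Hspa1a and Hspa1b.

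The LKO libraries on HFD were the most alike for 9 of the 10 genes. Their coefficient of variation was 2.43% for Hsph1, 2.45% for Hsp90ab1, 2.63% for Hspb1, 2.97% for Hsf1 and 3.99% for Dnaja1. In LKO on chow the same genes varied by 41.0%, 17.4%, 39.1%, 16.7% and 21.6%. Hspa1b also varied least in LKO on HFD, by 26.3%, but Hspa1a varied most there, by 87.7%. For Hspa8 the margin was small, 9.997% in LKO on HFD against 10.10% in LKO on chow. The count of 9 was not set against all genes. On the first principal component of all genes tested, the LKO libraries on HFD also had the smallest SD, 1.68. It was 2.11 in WT on chow, 5.01 in WT on HFD and 8.51 in LKO on chow. The difference in spread was not tested.

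The other genes of the chaperone system were read from 7 lists, with 75 genes tested. The lists were chosen from textbook knowledge, with earlier results of these data known. On chow 9 were higher and 9 lower in LKO liver, 24% of the 75 against 24.7% of all genes. On HFD 5 were higher and 8 lower, 17.3% against 17.9%. Between genotypes these shares lay near the background, and the called genes stood on both sides. Between diets edgeR called 0 of the 75 in WT (5 at an unadjusted p under 0.05, 1 called by DESeq2, 0 by voom) and 0 in LKO (11 unadjusted, 2 by DESeq2, 13 by voom). In the interaction it called 0 (6 unadjusted, 0 by DESeq2, 0 by voom). Over all 14434 genes, DESeq2 called 702 between diets in WT and 783 in LKO, and voom 485 and 2053. Without LKO chow replicate 2, 4 of the 75 were called between diets in LKO liver, where 656 of all 14549 genes were called. In that fit 9 of the 75 were higher and 12 lower between genotypes on chow. Without LKO chow replicates 1 and 2 the chow counts were 17 higher and 14 lower, and without 3 and 4 they were 5 and 6, so the counts of single lists on chow below depend on these libraries. With all libraries, the share of all genes beside each of these counts is 12.9% higher and 11.8% lower on chow, and 10.3% and 7.57% on HFD. Fits with libraries left out have shares of their own. Without LKO chow replicates 3 and 4, 1312 of 14647 genes were higher and 1061 lower on chow. The shares of the other such fits between genotypes are not given here.

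Among 15 relatives of HSP70 and nucleotide exchange factors, 4 were lower on chow and 0 higher. Without LKO chow replicates 3 and 4 only 1 was lower, and without 1 and 2 the count was 2 higher and 5 lower. The 4 genes were Hspa13, a microsomal HSP70 relative (-0.83 log2, adjusted p = 0.000993), and the BAG-domain exchange factors Bag3 (-0.59, adjusted p = 0.0201), Bag2 (-0.74, adjusted p = 0.0229) and Bag1 (-0.28, adjusted p = 0.0314). Only Bag3, which links HSP70 to autophagy and to small heat shock proteins, was also called on HFD (-0.54, adjusted p = 0.0381). It lay at 62.5 and 41.5 CPM in WT and LKO on chow and at 54.0 and 37.0 CPM on HFD. Among 13 further J-domain genes, 2 were higher and 4 lower on each diet (on chow 2 and 2 without LKO chow replicates 3 and 4, 2 and 3 without 1 and 2). Dnaja4, a relative of Dnaja1, rose by 0.90 on chow (adjusted p = 0.0032) and 0.95 on HFD (adjusted p = 0.00325), and Dnajc8, a J-domain protein of the splicing machinery, fell by 0.42 (adjusted p = 0.00274) and 0.55 (adjusted p = 0.000416). Dnajc7, a co-chaperone of HSP70 and HSP90, fell by 0.47 on HFD (adjusted p = 0.000988).

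Of 18 HSP90 co-chaperones, 2 were higher and 0 lower on chow: Unc45a, a myosin chaperone (0.47, adjusted p = 0.00631), and Stub1, the ubiquitin ligase CHIP (0.45, adjusted p = 0.00656). Without LKO chow replicate 2 the chow count was 2 higher and 4 lower, without replicates 1 and 2 it was 3 and 4, and without 3 and 4 it was 0 and 2. On HFD 0 were higher and 2 lower, Cdc37l1 (-0.41, adjusted p = 0.0128) and Tomm34 (-0.44, adjusted p = 0.0187). Of 15 chaperonin and prefoldin genes tested, 2 were higher and 1 lower on chow (4 and 2 without LKO chow replicates 1 and 2, 0 and 1 without 3 and 4), and 0 and 1 on HFD. Cct4, a subunit of the TRiC chaperonin that folds actin and tubulin, was the lower one on both diets. It fell from 109 ± 8.17 to 62.4 ± 4.14 CPM on chow (-0.81, adjusted p = 2.68e-06) and from 101 ± 6.67 to 65.5 ± 4.85 CPM on HFD (-0.62, adjusted p = 5.45e-05; SD, n = 4). The other subunits of the ring on the list were not called. Of the 4 further small heat shock genes tested, edgeR called 0 on either diet, with 1 at an unadjusted p under 0.05 on each. DESeq2 and voom called 0 on chow and 1 on HFD.

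Of 4 other heat shock factors and their regulators, 2 were higher on both diets (on chow 1 without LKO chow replicates 3 and 4). Hsf4, a heat shock factor best known from the lens, rose by 0.93 on chow (adjusted p = 0.00157) and 0.61 on HFD (adjusted p = 0.0279), and Hsf2bp, which encodes a protein that binds HSF2, by 1.09 (adjusted p = 0.025) and 1.14 (adjusted p = 0.0266). Of 6 further heat-inducible genes known as HSF1 targets, Ier5 rose by 0.97 on chow (adjusted p = 0.00322) and Ubb, a polyubiquitin gene, by 0.46 on HFD (adjusted p = 0.0131). Without LKO chow replicates 1 and 2, 3 of the 6 were higher on chow and 2 on HFD, and without 3 and 4, 2 on each diet. Without LKO chow replicate 2 alone, 2 were higher on HFD. Of 14 immediate early genes, 4 were higher and 0 lower on each diet, led by Btg2 at 1.31 on chow and 2.26 on HFD. Without LKO chow replicates 1 and 2, or without 3 and 4, only 2 were higher on chow. Of 14 clock genes, 0 were higher and 3 lower on chow, and 0 and 1 on HFD. The lower counts on chow were 8 without LKO chow replicates 3 and 4, 4 without 1 and 2, and 2 without replicate 2 alone. On HFD they were 2 without replicates 3 and 4 and 3 without 1 and 2. Between diets, 0 clock genes were higher and 1 lower in WT, against 2.04% of all genes called. In LKO 2 were higher and 3 lower, against 2.22%. Without LKO chow replicates 1 and 2 the LKO counts were 3 and 1, where 2768 of 14673 genes were called. Without 3 and 4 they were 4 and 3, where 179 of 14647 genes were called.

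Genes outside the lists were ranked by how closely their log2 CPM followed Hspa1b and Hspa8 over the 16 libraries, among 14319 candidates. Nearest to Hspa1b were Sar1b (Pearson r = 0.96), Uchl5 (0.95), Bco2 (0.95), Stoml2 (0.94) and Tial1 (0.94). After the group means were subtracted, r was 0.70, 0.58, 0.79, 0.66 and 0.61, so part of the likeness lay within groups. Nearest to Hspa8 were Sigirr (0.80), Eif3m (0.80), Tm2d3 (0.79), Wdr12 (0.79) and Zcchc17 (0.78), with 0.69, 0.82, 0.69, 0.88 and 0.79 after subtraction. These values describe likeness across libraries that share genotype, diet and depth, and they were chosen as the highest of many.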

How the data were processed

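Poly(A) RNA-seq was read in 16 mouse liver libraries in 4 groups of 4. The authors deposited expected counts (estimated counts) per gene symbol, not normalised, and 51.1% of the values were whole numbers (tolerance 1e-06). Per the submitters' processing notes the build was mm10, and Bowtie2 and DESeq2 were used, with no version or role given. The counting tool, its use of strand and the annotation are not given in the sources used here. A second table, named as RPKM, held the same estimated counts: 160 of 160 member values were equal once its chow columns were moved up by 1 row, and 80 as deposited. It was not used further.

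Counts were rounded and tested with edgeR 4.0.16 (R 4.3.3, data.table version 1.17.8) with TMM scaling, filterByExpr with the 4 groups, robust quasi-likelihood fits over all 16 libraries and 2-sided tests. P-values were adjusted by Benjamini-Hochberg over 14434 genes, and genes called below 0.05 with no fold minimum. Contrasts were LKO against WT on each diet, HFD against chow in each genotype, and the interaction. Values per library are TMM-scaled CPM, and intervals are 95% on edgeR's degrees of freedom. The test was checked on simulated data. Lengths and positions come from GENCODE M21 (GRCm38), and upstream sequences from RefSeq (GRCm38.p6), where 6 of 10 members were found. Alignments of Hspa1a with Hspa1b used Biopython 1.88 (Python 3.11.15).

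The heat shock genes and the gene lists were chosen with earlier results of these data known. Named genes were the 10 members, Arglu1, up to 4 called genes of lowest p per list and comparison, and the 5 genes most correlated with Hspa1b and with Hspa8 (log2 CPM, prior count 2). Same-numbered libraries of different groups correlated above 0.1 in 5 of 24 cases (median -0.018), so they were treated as unpaired. Alternatives were DESeq2 1.42.0, limma 3.58.1 voom with quality weights, other scalings and filters, a replicate block, fits limited to the groups in a comparison, a stricter adjusted p of 0.01, the Hspa1 pair summed, and leaving out each library or LKO chow replicates 1 and 2 or 3 and 4, which stood apart from each other on the second principal component. Sequencing depth gives the range of totals above, and intervals cover the spread between libraries.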

Additional observations from a re-analysis of the deposited data

Results flagged for a closer look

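Hspb1 stood apart in 1 library of each chow group, far from the other 3. In WT on chow, replicate 1 had 39.4 CPM and the others 18.0 to 20.1 CPM, a gap of 0.90 of the whole range. In LKO on chow, replicate 2 had 129 CPM and the others 62.8 to 69.1 CPM, a gap of 0.905 of the range. Both gaps pass the 95% limit of Dixon's test for 4 libraries. Of 40 groups looked at (10 genes in 4 groups) 2 passed it, where chance gives about 1 in 20. The genotype difference of Hspb1 was called without either library. Both libraries were also the highest of their groups for most other heat shock genes, WT chow replicate 1 for 7 of 10 and LKO chow replicate 2 for 9 of 10.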

How the results depend on the processing

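Hspa1b was called in 27 of 27 alternatives on both diets (-3.05 to -2.50 log2 on chow, -2.84 to -2.23 on HFD) and Hspb1 in 28 of 28 (1.46 to 2.12, 1.50 to 1.64). The members called between genotypes on chow numbered 2, but 4 without LKO chow replicates 1 and 2, and 2 to 4 without 1 library at a time. On HFD they numbered 4, but 2 at an adjusted p below 0.01, and 2 to 5 without 1 library. Between diets they numbered 0 in WT (0 to 1 without 1 library) and 0 in LKO, but 2 with voom, 3 without LKO chow replicates 1 and 2, and 0 to 1 without 1 library. Over all genes in LKO, voom called 2053 of 14434, and the fit without those replicates 2768 of 14673. In the interaction the members called numbered 0, and 0 without any 1 library. Without LKO chow replicates 1 and 2 there was 1 (Hsp90aa1, 0.98, adjusted p = 0.0293), where 1264 of 14673 genes were called. The replicate block gave 2, 3, 0, 0 and 0 in these 5 comparisons and lost Hsp90aa1 on HFD (0.65, adjusted p = 0.0561). The replicate numbers are not known to pair libraries. The cause of these changes was not tested.

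Of 1374 values of single members, 45 changed sign, all called under neither setting. Between genotypes on chow, Hsp90ab1 was -0.000114 with DESeq2, -0.000171 with its size factors, -0.078 with voom and -0.15 without LKO chow replicates 1 and 2. Hsp90aa1 was -0.15 with voom and -0.33 without those replicates, Hspa8 0.014 with library totals and Hsf1 -0.031 without LKO chow replicates 3 and 4. Between diets in WT, library totals gave Hsp90aa1 0.027, Hsp90ab1 0.022 and Dnaja1 0.00367. Between diets in LKO, Hspa1a was -0.094 with voom, -0.14 with the replicate block and -0.16 without LKO chow replicates 3 and 4, where Hsph1 was -0.12 and Dnaja1 -0.022. In the interaction Dnajb1 was 0.014 with voom and Hspb1 0.098 without LKO chow replicates 1 and 2. Without 1 library at a time, the genotype difference on chow ran from -0.18 to 0.012 for Hspa8, -0.20 to 0.21 for Hsp90aa1 and -0.11 to 0.092 for Hsp90ab1, and on HFD from -0.028 to 0.20 for Hsph1. The diet difference in WT ran from -0.16 to 0.069 for Hsp90aa1, -0.14 to 0.00571 for Hsp90ab1, -0.17 to 0.038 for Dnaja1, -0.24 to 0.00501 for Dnajb1 and -0.00163 to 0.13 for Hsf1. In LKO it ran from -0.68 to 0.36 for Hspa1a, -0.31 to 0.088 for Hspa1b and -0.00244 to 0.23 for Dnaja1. The interaction ran from -0.079 to 0.59 for Hspa1b, -0.20 to 0.089 for Dnajb1 and -0.56 to 0.10 for Hspb1.

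Calls over all genes moved by more than 1.5 times under some alternatives. On chow 3565 became 2152 with only the groups compared and 2373 without LKO chow replicates 3 and 4, and on HFD 2583 became 4519 with voom. Between diets, 294 in WT became 702 with DESeq2 and 320 in LKO became 783, and 2768 without LKO chow replicates 1 and 2. The interaction had 3, 53 with DESeq2 and 1264 without those replicates. Scaled to library totals, chow gave 2531 higher and 982 lower against 1867 and 1698. Hspa1a, at 3.0 to 53.5 counts, was limited by depth.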
